A study of Rattus norvegicus with 16 samples.

Results

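The myosin light chains, their skeletal muscle kinase and the fast myosin-binding protein C were described in muscle of the rat: the extraocular muscles, which rotate the eyeball, and a muscle labelled TA. The members were all probe sets that the platform's gene table assigns to Myl1, Myl2, Myl3, Myl4, Myl6b, Mylpf, Mylk2 or Mybpc2 alone. Mylpf is listed there under its current symbol Myl11, which RefSeq gives with Mylpf as a synonym, and it is called Myl11 below. The rule found 12 probe sets for the 8 genes, of 4737 genes named by single-gene probe sets and 8799 probe sets on the array. Another 3 probe sets name Myl6b together with other genes and were left out. Where a gene has several probe sets, they are numbered by mean intensity, the brightest first, so that Myl2 set 1 is the brightest of 3. The groups were EOM (rat skeletal muscle, extraocular, 4 arrays), TA_6h (rat skeletal muscle, TA, collected at 6 hours, 8 arrays) and TA_1h (the same muscle at 1 hour, 4 arrays). All are total RNA, with no strain, age, treatment or genotype given, no collection time for EOM, and no statement of the event the hours start from. Arrays with the same group and number were averaged on the log2 scale as 1 sample, which left 4 EOM, 4 TA_6h and 2 TA_1h samples. The labels do not tie the numbers to animals, so the p-values rest on variation among these samples alone, some of which may be technical.

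Myosin is a hexamer in which each heavy chain carries an essential and a regulatory light chain on its lever arm. Muscle fibres choose among light chain isoforms much as they choose among heavy chains: Myl1 is the fast essential chain, Myl3 the slow and ventricular one, and Myl4 the embryonic and atrial one, while Myl11 is the fast and Myl2 the slow and ventricular regulatory chain. Mylk2, the skeletal muscle myosin light chain kinase, is activated by calcium and calmodulin and phosphorylates the regulatory chains. Mybpc2 encodes the fast isoform of myosin-binding protein C, which lies along the thick filament and modulates cross-bridges. Extraocular muscle is known for fibres that keep embryonic and neonatal isoforms beside fast and slow ones.

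The arrays differed in ways that touch these genes. In the EOM columns 24.3% of all intensities lay below 0 and no TA intensity did, so the muscle and the way the values were made cannot be told apart in any difference between EOM and TA. All 12 probe sets were above the floor of 56.5 on every array, with a lowest value of 400.1 in EOM and 87.3 in TA. On all 4 arrays of TA_6h samples 3 and 4, and on array 2b of TA_1h, 5 in all, the middle over 3′ ratio of the beta-actin control was 0.146 to 0.390, against 0.815 to 1.28 on the other 7 and 0.891 to 0.978 in EOM. The same ratio of the GAPDH control picked out different arrays. It was 0.959 to 1.52 on those 5 arrays and 0.882 to 0.928 in EOM. On TA_1h 1a and 2a it was 0.185 and 0.211, and on TA_6h 1b and 2b 0.399 and 0.161. TA_1h 1b, TA_6h 1 and TA_6h 2 read 0.788, 1.11 and 0.949. Very bright muscle probe sets were uneven among TA arrays. Ckm, muscle creatine kinase, ranged from 7404 to 12333 in EOM but lay at or under the floor on 3 of 8 TA_6h and 1 of 4 TA_1h arrays, and reached 29046 on TA_1h 2b. Acta1, skeletal actin, ranged from 13880 to 19931 in EOM, from 94.9 to 24227 in TA_6h and from 7.17 to 31652 in TA_1h. The other 10 of 12 skeletal muscle markers measured were above the floor on all 16 arrays. Against TA_6h 1 of the 12 was called higher in EOM, Ckm (4.39 on the log2 scale), and 6 were called lower by limma. These were desmin Des (-0.82), glycogen phosphorylase Pygm (-0.77), troponin Tnni2 (-0.79) and the heavy chains Myh2 (-0.65), Myh4 (-0.65) and Myh7 (-0.81). The other probe set of Pygm (-0.20) was not called. The 5 markers not called were Acta1 (1.90), Myh1 (0.38), Tnnt3 (0.01), Tnnc2 (-0.04) and Atp2a1 (-0.05). Of these 12 markers 6 were thus lower in EOM together with Myl1, Mylk2 and Mybpc2, and the others were not. The part of the markers in those differences was not tested.

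In EOM against TA collected at 6 hours, the embryonic chain Myl4 was the member with the largest difference upwards and Mybpc2 the one with the largest downwards. Myl4 was higher in EOM by 7.0- and 5.85-fold through its 2 probe sets. Mybpc2 was 6.84-fold lower, Myl3 3.56-fold, Myl1 2.05-fold and Mylk2 1.82-fold. Of the 12 probe sets 9 were called at a limma adjusted p under 0.05, 3 higher and 6 lower, where 47.2% of all 7640 probe sets tested were called, 21.9% higher and 25.3% lower. The arrays of the groups did not overlap for the same number of members, 9, against 40.8% of all probe sets. The median log2 difference was -0.44 over the members and -0.11 over all probe sets. Both directions were thus common on the whole array, and the members' results are the named differences rather than their number.

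**Figure D1:**
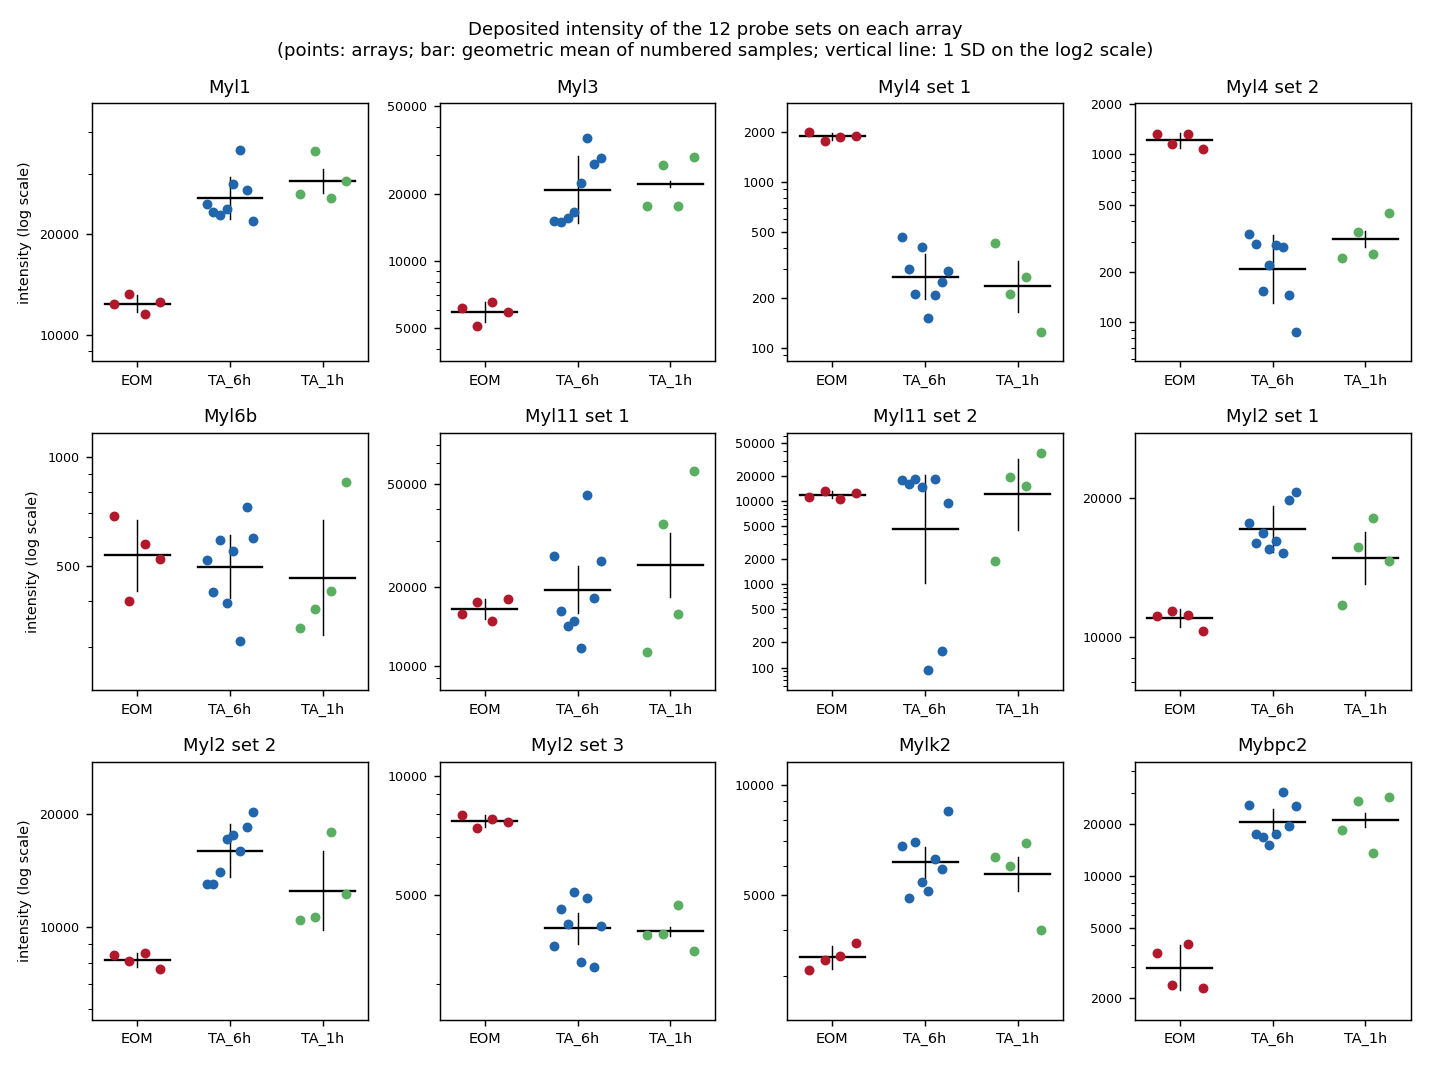
Deposited intensity (log scale) of the 12 probe sets by group; each point is an array, the bar is the geometric mean of the numbered samples and the vertical line spans 1 SD either way on the log2 scale. EOM lies apart from both TA groups for Myl1, Myl3, both sets of Myl4, all sets of Myl2, Mylk2 and Mybpc2, and Myl11 set 2 falls to 93.2 and 157 on 2 TA_6h arrays.

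The essential light chains Myl1, Myl3 and Myl4 occupy the same place on the heavy chain and did not move together, so the bases before their transcription starts are shown to let the isoforms be compared. The sequences are the 250 bases before each start listed by RefSeq on build GRCr8, read 5′ to 3′ on the gene's strand, and capitals mark matches to the E-box (CANNTG), to the CArG box bound by serum response factor and to the MEF2 site, all searched on both strands, with TATAAA searched too and not capitalised. Myl1 has 2 listed starts, chr9:75907697-75907946 and chr9:75897800-75898049, both on the minus strand, which give the long and the short form of the fast chain. Myl3 is at chr8:119616844-119617093 and Myl4 at chr10:89975900-89976149, both on the plus strand.
Myl1 first start: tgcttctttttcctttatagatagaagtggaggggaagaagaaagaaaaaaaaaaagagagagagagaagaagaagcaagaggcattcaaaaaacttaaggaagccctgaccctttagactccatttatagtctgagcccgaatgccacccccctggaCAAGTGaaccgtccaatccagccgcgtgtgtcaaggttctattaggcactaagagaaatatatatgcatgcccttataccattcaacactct
Myl1 second start: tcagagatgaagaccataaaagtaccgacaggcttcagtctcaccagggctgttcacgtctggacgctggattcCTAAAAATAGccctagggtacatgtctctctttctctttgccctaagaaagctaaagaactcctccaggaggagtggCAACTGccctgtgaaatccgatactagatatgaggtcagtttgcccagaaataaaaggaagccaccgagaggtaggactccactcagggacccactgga
Myl3: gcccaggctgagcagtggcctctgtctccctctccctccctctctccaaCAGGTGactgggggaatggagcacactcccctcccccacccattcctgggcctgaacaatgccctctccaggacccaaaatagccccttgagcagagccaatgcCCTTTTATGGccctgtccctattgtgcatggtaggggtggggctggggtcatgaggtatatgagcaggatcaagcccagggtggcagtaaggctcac
Myl4: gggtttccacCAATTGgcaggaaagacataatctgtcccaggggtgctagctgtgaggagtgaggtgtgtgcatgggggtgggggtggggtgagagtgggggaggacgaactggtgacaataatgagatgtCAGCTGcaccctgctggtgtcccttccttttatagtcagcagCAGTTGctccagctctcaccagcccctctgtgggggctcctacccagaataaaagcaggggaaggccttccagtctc
The Myl4 window holds 3 E-boxes, 1 TATAAA on the minus strand, and neither a CArG box nor a MEF2 site. The Myl3 window holds 1 E-box and a CArG box, CCTTTTATGG, 97 to 88 bases before the start. Of the Myl1 windows the first holds 1 E-box and 2 TATAAA matches on the minus strand, and the second holds 1 E-box and a MEF2 site, CTAAAAATAG, 176 to 167 bases before the start. Myl11 and Mybpc2, the other members with an entry, hold 1 E-box each in theirs and no CArG box or MEF2 site. Among 33465 RefSeq windows of 250 bases, 65.5% hold an E-box, 12.9% TATAAA, 1.5% a CArG box and 1.68% a MEF2 site. No motif overlaps another in the printed windows.

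Myl4 set 1 read 1991, 1771, 1861 and 1896 on the 4 EOM arrays. The TA_6h arrays ran from 150.8 through a median of 269.4 to 466.1. Every EOM array was thus at least 3.80-fold brighter than the brightest TA_6h array. The log2 difference was 2.81 ± 0.25 (SE), with a 95% interval of 2.26 to 3.36 (limma adjusted p = 1.44e-05; 4 samples a group). Myl4 set 2 read 1323, 1144, 1325 and 1070 in EOM. Its TA_6h arrays ran from 87.3 through 249.3 to 332.9, again apart from EOM, and the log2 difference was 2.55 ± 0.30 (limma adjusted p = 9.63e-05). The 2 sets therefore give the same direction, with intervals that overlap, but they were designed on the same database entry. Myl4 is also an atrial gene, and markers of heart muscle were read beside it. Of 8 such markers 6 were above the floor on all EOM arrays and 7 on all TA_6h arrays. The summed level of the 8, with values under the floor raised to it, was 19095 to 27017 in EOM and 11051 to 37605 in TA_6h, and the atrial peptide Nppa was at the floor on every EOM array. Of the 8, limma called 2 higher in EOM, the natriuretic peptide Nppb (2.44) and cardiac troponin Tnnt2 (1.21), and 4 lower, Nppa (-1.81), Ryr2 (-1.11), Myl7 (-1.06) and Myh6 (-1.0, though another of its probe sets was called higher at 1.98). Ryr2 was above the floor on 3 EOM arrays and Nppb on 6 TA_6h arrays. The size of the Nppa, Ryr2 and Nppb differences therefore depends on the floor. Further probe sets of Nppa gave -0.92, called, and -0.20, not called, and the other set of Myl7 gave 0.44, not called. The markers went both ways, and their part in the Myl4 difference was not tested.

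Myl1 gave the opposite picture at high intensity. Its EOM arrays read 12402, 13221, 11527 and 12557, and its TA_6h arrays ran from 21805 through 24037 to 35362. The groups did not overlap, and the difference was -1.04 ± 0.15 on the log2 scale (limma adjusted p = 0.000432), an interval of 1.62- to 2.61-fold lower. Myl3, the slow chain, read 6137, 5062, 6504 and 5891 in EOM. In TA_6h it ran from 14878 through 19466 to 35661, and the difference was -1.83 ± 0.24 (limma adjusted p = 0.000191). The TA_6h arrays of Myl3 formed 2 levels that went with the beta-actin control, but the TA_1h arrays did so only in part. Samples 1 and 2 lay between 14878 and 16565, and samples 3 and 4, of low beta-actin ratio, between 22367 and 35661. TA_1h array 1b, with a ratio of 0.875, read 26919, inside that range. Without these 5 low-ratio arrays the Myl3 difference was -1.40, and with only those as TA it was -2.26, both called. The part of RNA quality in the size of this difference was not tested, and the beta-actin and GAPDH ratios pick out different arrays.

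Myl6b, an essential chain of non-muscle and slow muscle myosin, read 687, 400.1, 575 and 523 in EOM. The TA_6h arrays ran from 311 through 535 to 726, so the groups overlapped. The difference was 0.10 ± 0.24 with an interval of -0.44 to 0.64 (limma adjusted p = 0.742), and a change of up to 1.56-fold in EOM is within that interval. Its gene number in the platform table has no entry in the RefSeq table used here, and 3 further probe sets are shared between Myl6b, Myl6 and near copies, so that the identity of this signal is uncertain.

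Among the regulatory chains Myl11, the fast isoform, was not called in either probe set when all arrays were used. Myl11 set 1 read 15797, 17581, 14895 and 17975 in EOM, inside the TA_6h range of 11683 through a median of 17215 to 45306. Its difference was -0.25 ± 0.20 (limma adjusted p = 0.325), with an interval from -0.69 to 0.20. Myl11 set 2 had 11270, 13099, 10667 and 12445 in EOM. In TA_6h it had 17813, 15914, 18273 and 14618 on arrays 1, 1b, 2 and 2b, but 93.2 on 3a, 18183 on 3b, 157 on 4a and 9312 on 4b. Arrays 3a and 3b carry the same sample number and differed by 195-fold in this probe set, and by 3.88-fold in set 1. In TA_1h, array 1a read 1883 and array 1b 19190, a 10.2-fold gap. On these 3 arrays, 3a, 4a and TA_1h 1a, set 1 stood at 11683, 18246 and 11343, the first and last of these below the lowest of the other 9 TA arrays (14266) by far less than in set 2. The set 2 difference of 1.37 ± 0.91 (limma adjusted p = 0.237) carries the widest interval of any member, -0.65 to 3.40, and turned to -0.49, not called, without the 5 low-ratio arrays. With only those arrays as TA the sets differed from TA_6h in opposite directions, set 2 at 3.24 and set 1 at -0.43. The value of set 2 rests on log2 means of 10.35 in sample 3 and 10.24 in sample 4. Each averages arrays that lie far apart, and that gap does not enter the error of the fit. Against the single TA_1h array of that kind both were lower in EOM, set 2 at -1.67 and set 1 at -1.75. On the TA arrays other than these 3, set 2 ran from 9312 to 37559, a range that includes the EOM values.

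**Figure D2:**
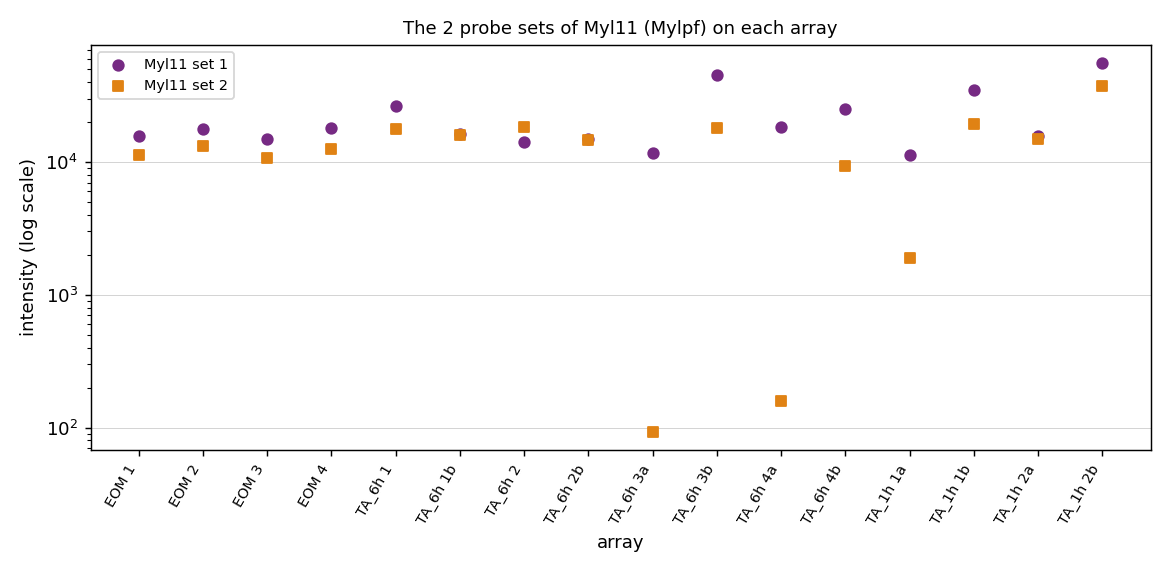
Intensity (log scale) of the 2 Myl11 probe sets on each of the 16 arrays, circles for set 1 and squares for set 2. On 13 arrays set 2 lies at 9312 or above, while it falls to 93.2, 157 and 1883 on TA_6h 3a, TA_6h 4a and TA_1h 1a, where set 1 reads 11343 to 18246.

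Myl2, the slow and ventricular regulatory chain, had probe sets that disagreed. Set 1 read 11109, 11408, 11162 and 10324 in EOM and ran from 15228 through 16459 to 20564 in TA_6h. Set 2 read 8372, 8065, 8475 and 7681 in EOM and ran from 13002 through 16537 to 20260. Both were lower in EOM without overlap, by -0.64 ± 0.15 and -0.97 ± 0.18 (limma adjusted p = 0.00597 and 0.00143). Set 3 read 7983, 7373, 7789 and 7656 in EOM against 3306 through 4210 to 5089 in TA_6h. It was higher in EOM, also without overlap, by 0.90 ± 0.14 (limma adjusted p = 0.000507). Sets 1 and 2 were designed on one database entry and set 3 on another, and the platform table assigns all 3 to Myl2. The data do not say which of them measures the gene, so no direction is given for Myl2 as a gene.

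Mylk2 read 3110, 3311, 3398 and 3692 in EOM. The TA_6h arrays ran from 4903 through 6067 to 8442, apart from EOM, and the difference was -0.86 ± 0.15 (limma adjusted p = 0.00101), or 1.45- to 2.28-fold lower. Mybpc2 read 3625, 2359, 4063 and 2264 in EOM, the widest spread of any member there on the log2 scale, 3078 ± 903 (SD, n = 4). In TA_6h it ran from 15067 through 18516 to 30532. The lowest TA_6h array was 3.71-fold above the highest EOM array, and the difference was -2.77 ± 0.23 (limma adjusted p = 1.11e-05), 4.78- to 9.79-fold lower.

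Within-array ratios of the isoforms do not depend on how whole arrays are scaled. They are given for the brightest probe set of each gene, as differences between groups and without a test. The log2 ratio of Myl4 to Myl1 was 3.85 higher in EOM than in TA_6h, and that of Myl4 to Myl3 was 4.64 higher. The ratio of Myl3 to Myl1 was -0.79 relative to TA_6h, so that Myl3 differed from TA_6h by more than Myl1 did. Other slow fibre markers did not share one direction: of 6 measured, limma called 3 higher in EOM, phospholamban Pln (2.43), calsequestrin Casq2 (1.27) and tropomyosin Tpm3 (0.68, with another probe set called at -1.30), and 1 lower, Myh7 (-0.81). Tnni1 (-0.04) and the brightest set of Atp2a2 (-0.13) were not called. Of the other Atp2a2 sets those at 1.85 and 0.59 were called higher, and that at -0.83 was not called. The second set of Myh7 was called lower (-2.04). Mybpc2 to Myl1 was -1.73 relative to TA_6h. The heavy chains of the same filament also went both ways: of 8 measured genes 3 were called higher and 4 lower in EOM than in TA_6h, with neonatal Myh8 at 6.70 and extraocular Myh13 at 5.18 on the log2 scale.

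Against TA collected at 1 hour, a comparison that shares the EOM samples with the previous one, 8 of the 12 probe sets were called, 3 higher and 5 lower. Of all probe sets 37.2% were called in that comparison, 17.7% higher and 19.5% lower. The arrays did not overlap for 9 members, against 49.3% of all probe sets. Only 2 numbered samples stand behind TA_1h, which widened all intervals. Myl4 set 1 had 426, 212, 269 and 124 in TA_1h and differed by 3.0 ± 0.30 (limma adjusted p = 5.58e-05), 8.03-fold higher in EOM. Myl4 set 2 had 241, 344, 254 and 445, and differed by 1.96 ± 0.37 (limma adjusted p = 0.00237). Array 2b was thus the lowest of the 4 in set 1 and the highest in set 2.

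Mybpc2 had 18475, 27129, 13545 and 28272 in TA_1h and was lower in EOM by 2.81 on the log2 scale (difference -2.81 ± 0.28, limma adjusted p = 5.77e-05). Myl3 had 17633, 26919, 17621 and 29435, and its difference was -1.92 ± 0.29 (limma adjusted p = 0.000718). Myl1 had 26141, 35247, 25594 and 28688, with a difference of -1.21 ± 0.19 (limma adjusted p = 0.000848). For these 3 genes every EOM array lay below every array of either TA group. Mylk2 had 6339, 5972, 6934 and 4007, and differed by -0.76 ± 0.18 (limma adjusted p = 0.00866). Its call was lost without TA_1h sample 1 (-0.64, limma adjusted p = 0.0730) and kept without sample 2 (-0.87), and with only the low-ratio arrays as TA the difference was -0.25 (limma adjusted p = 0.323).

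Myl2 set 3 had 3971, 3990, 4721 and 3632 in TA_1h and set 2 had 10430, 10589, 17923 and 12256, each apart from EOM. Set 3 was again higher in EOM, by 0.92 ± 0.17 (limma adjusted p = 0.00198). Set 2 was lower, with a difference of -0.62 ± 0.22 at a limma adjusted p of 0.0480, a call lost in 11 of 25 other settings, among them the removal of any EOM sample (limma adjusted p = 0.0780 to 0.0924) or of TA_1h sample 2 (difference -0.37, limma adjusted p = 0.338). It was also lost without TA_6h sample 2 (0.0607) or 3 (0.0610). Set 1 was not called (-0.43 ± 0.18, limma adjusted p = 0.0896). Myl6b (0.20 ± 0.30), Myl11 set 1 (-0.56 ± 0.24) and Myl11 set 2 (-0.01 ± 1.11) were not called either, with limma adjusted p-values of 0.627, 0.100 and 0.998.

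**Figure D3:**
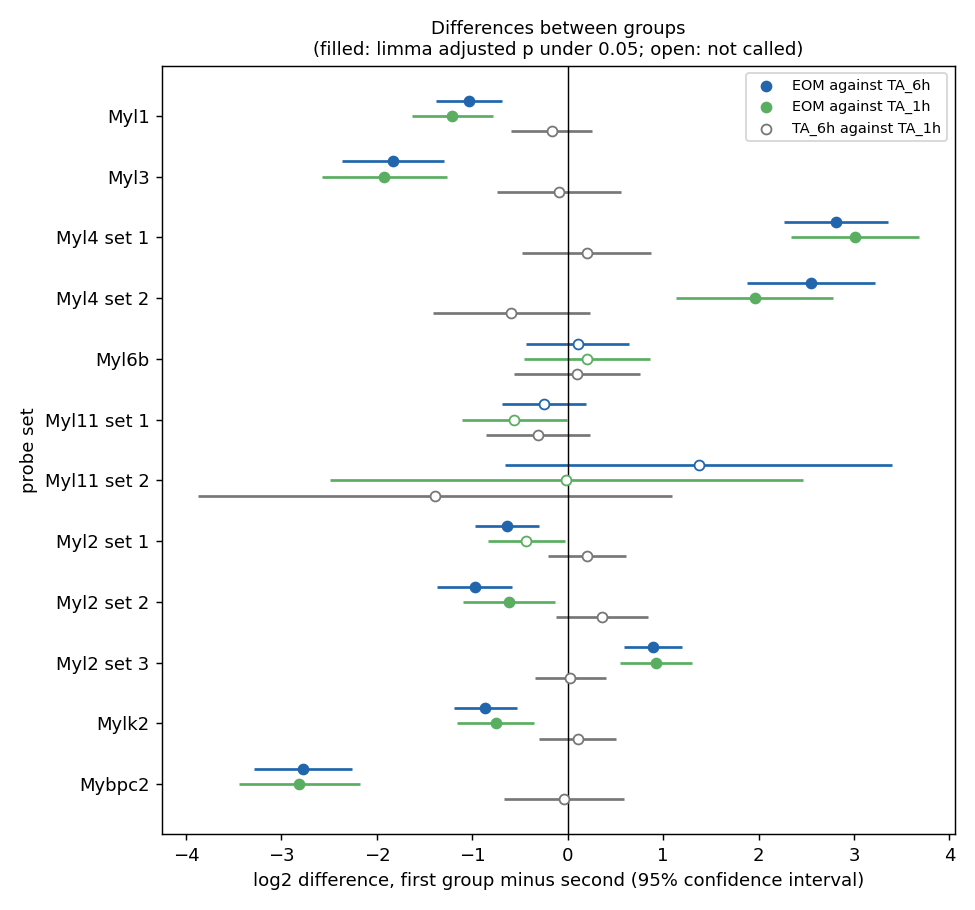
Log2 difference of each probe set (first group minus second) with its 95% confidence interval, in blue for EOM against TA_6h, green for EOM against TA_1h and grey for TA_6h against TA_1h; filled points were called. Both EOM comparisons give Myl4 at 1.96 to 3.0 and Mybpc2 at -2.77 and -2.81, while every grey interval includes 0.

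The TA arrays collected at 6 hours and at 1 hour, in which no value lay below 0, can be compared without the EOM columns. None of the 12 probe sets was called by limma, 0 of them had an unadjusted p under 0.05, and 0% of all probe sets were called, with 424 of 7640 at an unadjusted p under 0.05. No member had groups without overlap, against 1.26% of all probe sets. The differences ran from -1.39 for Myl11 set 2 to 0.36 for Myl2 set 2, and the lowest limma adjusted p was 0.973. The intervals show what the design could miss. They were widest for Myl11 set 2, -3.87 to 1.09, and next for Myl4 set 2, -1.41 to 0.23. A level at 6 hours up to 14.6-fold lower for Myl11 set 2 and 2.66-fold lower for Myl4 set 2 is inside them. For Myl1 the interval was -0.59 to 0.25, for Mylk2 -0.30 to 0.51, for Mybpc2 -0.67 to 0.59 and for Myl3 -0.75 to 0.56. A level up to 1.42-fold higher at 6 hours for Mylk2, 1.48-fold higher for Myl3 and 1.51-fold higher for Mybpc2 is thus inside the interval, and so is one up to 1.51-fold lower for Myl1 and 1.68-fold lower for Myl3. Among only the arrays of low beta-actin ratio, where TA_1h is a single array, both Myl11 sets were lower at 6 hours. The differences were -1.32 for set 1 and -4.90 for set 2. Those values rest on arrays 3a and 4a against TA_1h 2b, the array with the highest Myl11 of all and the single TA_1h sample there.

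Other genes that act with the light chains were read from a list of 29, of which 17 were measured. Of all probe sets 47.2% were called against TA_6h and 37.2% against TA_1h. Against TA_6h 4 of the 17 were called higher and 3 lower, with a median of 0.18. Higher were the non-muscle light chains Myl6 (1.24 ± 0.18, limma adjusted p = 0.000434) and Myl12b (1.13 ± 0.19, and 1.81 through its other probe set), the phosphatase catalytic subunit Ppp1cc (0.82 ± 0.16) and calmodulin Calm2 (0.46 ± 0.15). Lower were Mybph, a relative of myosin-binding protein C, in both probe sets (-1.39 ± 0.19 in the brighter), the atrial regulatory chain Myl7 (-1.06 ± 0.16) and the myosin phosphatase targeting subunit Ppp1r12a (-0.86 ± 0.21). The other probe sets of Myl7 (0.44) and Ppp1r12a (0.28 and 0.47) had the opposite sign and were not called. For 2 listed genes not called by their brightest probe set another was called, higher for Ppp1cb (1.37) and lower for Dapk3 (-1.28). Against TA_1h 2 were higher, Myl6 (1.46) and Myl12b (0.93), and 3 lower, Mybph (-1.48), Ppp1r12a (-1.38) and Myl7 (-0.92), while the other probe set of Myl7 was called higher (1.07). Between the TA times 0 of 17 were called. The list counts moved with the arrays used: without the 5 low-ratio arrays 11 of 17 were called against TA_6h and 10 of 17 against TA_1h. Without TA_6h sample 4 there were 8 against TA_1h. Smooth muscle and pericyte markers, read because Myl6 and Myl12b are abundant in such cells, were 2 higher and 4 lower of 7 in EOM against TA_6h. Their summed level was 5439 to 7538 in EOM and 3090 to 14356 in TA_6h, and Cnn1 was at the floor on every EOM array. The higher ones were caldesmon Cald1 (3.11) and smooth muscle myosin Myh11 (2.50), and the lower ones Tagln (-2.50), Cspg4 (-2.07), Pdgfrb (-1.08) and Cnn1 (-0.95). Tagln, Cspg4 and Pdgfrb were each above the floor on only 2 of 4 EOM arrays, and Cald1 and Myh11 on 5 of 8 TA_6h arrays. The size of these differences therefore depends on the floor. The brightest set of Acta2 was not called (0.15). Further probe sets of Acta2 (1.13 and 3.50) and Tagln (1.61) were called higher. By brightest probe set 2 of the 7 markers were thus higher in EOM together with Myl6 and Myl12b, and 4 were lower, with a median of -0.95. Their part in the light chain differences was not tested, and in these whole-muscle samples fewer cells of a type and less RNA per cell cannot be told apart.

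The genes whose pattern was most like each member were found by Pearson correlation of log2 intensity over the 16 arrays among 4306 genes. The arrays fall into EOM and TA, so a high r can reflect that split for members that differ between them. For this reason r over the 12 TA arrays is given beside it. Myl3 was closest to Eef2 (r = 0.980, and 0.926 within TA), Uox (0.974 and 0.915) and Ppil3 (0.970 and 0.880). Myl2 set 1 was closest to Cybrd1 (0.974, and 0.960 within TA), then Dnm2 (0.906 and 0.753) and Vps33a (0.900 and 0.674). Mybpc2 was closest to Ppil3 (0.972), Uox (0.972) and Pyy (0.971), with lower values within TA, 0.609, 0.739 and 0.725. Myl4 set 1 was closest to Serping1 (0.966), F3 (0.966) and Marcks (0.965), at 0.717 to 0.752 within TA. Myl1 was closest to Uox (0.963, and 0.708 within TA), Acat1 (0.958 and 0.714) and Dusp7 (0.948 and 0.679). Mylk2 was closest to Icam2 (0.929 and 0.761), Pfkl (0.926 and 0.753) and Tcea2 (0.913 and 0.698). Myl11 set 1 was closest to Mpc1 (0.934), Cox6a2 (0.933) and Cox4i1 (0.914), and within TA these were 0.965, 0.957 and 0.910. Myl6b was closest to Chmp1a (0.836 and 0.874), Rpp21 (0.805 and 0.805) and Psmb1 (0.797 and 0.826). For Myl11 and Myl6b the values within TA were thus about as high as over all arrays, while for Myl1, Myl4, Mylk2 and Mybpc2 they were lower. Library and array are shared by all these points.

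**Figure D4:**
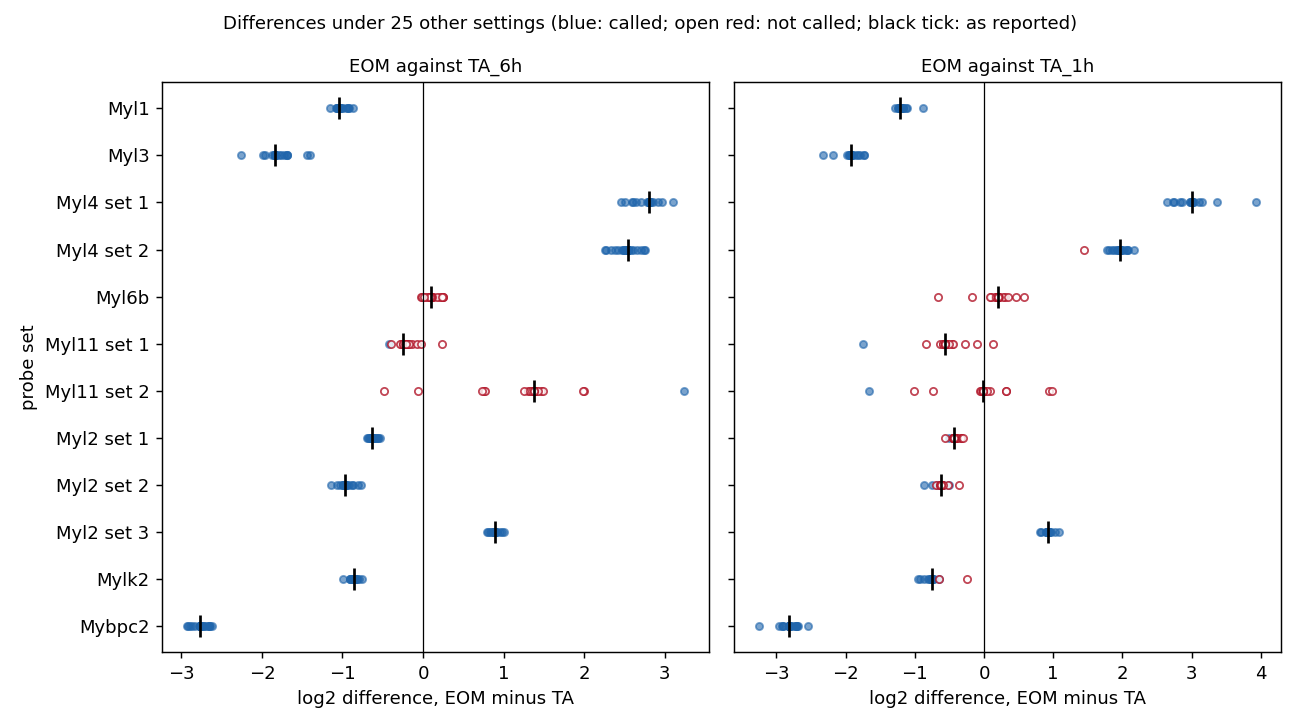
Log2 difference (EOM minus TA) of each probe set under 25 other settings, blue where called and open red where not, with a black tick at the reported value. The 9 called probe sets stay on their side of 0 and called in every setting against TA_6h, while Myl6b and both Myl11 sets cross 0.

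The 9 calls against TA_6h were made again in all 25 other settings, 10 of which each left out 1 numbered sample. Several settings, among them another filter or leaving out a TA_1h sample, could not move these differences. Those settings bear only on the errors and adjusted p-values. Over the 25 settings Myl4 set 1 ran from 2.46 to 3.11, Myl4 set 2 from 2.26 to 2.76, Mybpc2 from -2.93 to -2.62, Myl3 from -2.26 to -1.40 and Myl1 from -1.16 to -0.87. Mylk2 ran from -0.99 to -0.75 and Myl2 set 3 from 0.79 to 1.00. Against TA_1h the calls of Myl1, Myl3, Mybpc2, Myl4 set 1 and Myl2 set 3 were made in all 25 as well, and Myl4 set 2 lost its call in 1, with only the low-ratio arrays as TA (1.44, limma adjusted p = 0.0681).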

How the data were processed

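Expression was measured on 16 single-colour oligonucleotide arrays of rat muscle total RNA. The authors deposited linear intensities, and the sources used here do not give the step that summarised the probes. Each array's mean without the highest and lowest 2% was 801.1 to 801.8, so the authors' scaling was kept. Intensities were floored at their 25th percentile (56.5) before log2, and 59 controls were removed. limma 3.58.1 (R 4.3.3) then fitted all groups together on the 7640 probe sets that exceeded the floor on 4 or more arrays (residual degrees of freedom 7, prior 2.83). P-values were adjusted by Benjamini-Hochberg over all of them, with calls under 0.05. Errors are limma standard errors unless given as SD. The TA_6h arrays 1 and 2, which carry no letter, were joined with 1b and 2b by inference. Same-numbered samples of different groups deviated together by r of -0.42 to 0.39, and the samples were treated as unpaired. Both ends of that range come from TA_1h, whose 2 samples deviate as mirror images. Differently numbered pairs were not read beside these, so the values cannot decide whether the numbers pair samples. Gene names come from GEO's platform annotation, in which 7018 probe sets have 1 symbol, 308 several and 1473 are unlisted. Of the 8 genes 7 matched RefSeq by gene number, and promoter entries on GRCr8 covered 5. Every member probe set is named. From the list of partners up to 4 called genes a direction are named by size of difference, each by its brightest probe set. Likeness was ranked as the 3 highest correlations. The fit was tested on simulated data. The members, lists and settings were chosen with earlier results of these data known. The number of arrays limits precision. Figures used matplotlib 3.10.9 in Python 3.11.15.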

Additional observations from a re-analysis of the deposited data

Results flagged for a closer look

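Of 48 groups of 4 or more values tested over the members, 1 held a sample far from the others, and chance gives about 1 in 20. For Myl1, the fast essential light chain, TA_6h sample 3 stood at 31545.5 (geometric mean of arrays 3a and 3b), against 23191.8 to 24243.3 in the other 3 TA_6h samples. Its beta-actin control ratio was among the low ones, as was that of sample 4, which did not stand apart. The part of that ratio was not tested.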

How the results depend on the processing

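The 9 member calls against TA_6h and the calls of Myl1, Myl3, Mybpc2, Myl4 set 1 and Myl2 set 3 against TA_1h were made in all 25 other settings. Some of these settings could change only the errors and adjusted p-values of the members, not the differences. Requiring values above the floor on all 16 arrays left 4041 probe sets, of which 1927 were called against TA_6h and 1512 against TA_1h. Leaving out 1 numbered sample gave 1861 to 3045 calls against TA_1h, the lowest without TA_1h sample 1, and 4 to 8 partner genes there. Partner genes called against TA_1h were 8 with quantile normalization, with only the groups compared or with the low beta-actin ratio as a covariate, and 10 without the low-ratio arrays, which gave 11 against TA_6h. Between TA times all calls were 8 with no filter, 45 without the low-ratio arrays and 681 with only those, an alternative chosen after seeing the data, which also called 2 members. With sample number as a replicate block 9, 7 and 0 members were called against TA_6h, against TA_1h and between TA times. Of all probe sets, fewer were called with the block than the 47.2% and 37.2% called without it against TA_6h and TA_1h. Between TA times 0 were called with the block and 0 without it. Whether the numbers pair the samples is not known. The block ended the call of Myl2 set 2 against TA_1h (-0.70, limma adjusted p = 0.0746) and turned the uncalled Myl11 set 2 there to 0.94.

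Signs turned only for differences not called. With quantile normalization Myl6b against TA_6h was -0.022, Myl11 set 1 was 0.24 against TA_6h and 0.14 against TA_1h, Myl11 set 2 was 0.31 against TA_1h, and Mybpc2 was 0.12 between TA times. Scaling to the same median gave 0.087 for Myl11 set 2 against TA_1h. Without the low-ratio arrays Myl11 set 2 was -0.49 against TA_6h, 0.32 against TA_1h and 0.80 between TA times, where Mylk2 was -0.13 and Mybpc2 0.072. As a covariate the ratio gave -0.060 for Myl11 set 2 against TA_6h. With only the low-ratio arrays Myl6b was -0.67 against TA_1h and -0.71 between TA times. Leaving out 1 numbered sample, Myl6b ran from -0.015 to 0.24 against TA_6h, -0.17 to 0.58 against TA_1h and -0.27 to 0.47 between TA times, and Myl11 set 2 from -1.0 to 0.98 against TA_1h. Between TA times Myl2 set 3 then ran from -0.027 to 0.078, Myl3 from -0.24 to 0.068, Myl4 set 1 from -0.16 to 0.56, Mylk2 from -0.0056 to 0.22 and Mybpc2 from -0.14 to 0.079. A lone TA_1h sample was assumed to vary like the other groups. The cause was not tested in any of these. Precision is limited by the number of samples, 2 in TA_1h.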
